A study of Mus musculus with 2 samples.

Results

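This is an account of 30 genes for the scaffolds, adhesion proteins and kinases of the postsynaptic side of the synapse, together with 2 presynaptic neurexins, in the embryonic mouse central nervous system (CNS). The members were taken by gene symbol from a fixed list: the MAGUK scaffolds Dlg1, Dlg2, Dlg3 and Dlg4, the SAPAP linkers Dlgap1, Dlgap2, Dlgap3 and Dlgap4, the SHANK and Homer proteins, Baiap2, the neurexins Nrxn2 and Nrxn3, the neuroligins Nlgn1, Nlgn2 and Nlgn3, the LRRTM proteins, the 4 CaMKII subunits, Arc, Nrgn and Gphn. All 30 were found among 43346 Ensembl genes, and the rule that picks them reads no measured value. The study sequenced polyadenylated RNA from whole CNS of C57BL/6J embryos at embryonic day 11.5. It has 1 group, with 2 stranded paired-end libraries described as biological replicates 1 and 2. Each came from pooled littermates of both sexes, with the same donor record and no treatment, genotype change or second age. The replicates differ in tissue sample, and no source used here gives the dissection limits of either. All differences below therefore compare these 2 libraries, not conditions, and no p-value is given.

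At an excitatory synapse the presynaptic neurexins bind neuroligins and LRRTM proteins across the cleft. Behind the postsynaptic membrane MAGUK proteins hold receptors and adhesion proteins in place, SAPAP proteins link MAGUKs to SHANK, and Homer joins SHANK to metabotropic receptors and calcium stores. CaMKII is the calcium-dependent kinase that is concentrated there in the mature brain, and gephyrin is the matching scaffold of inhibitory synapses. At midgestation the neural tube consists mostly of dividing progenitors and newly born neurons, and few synapses have formed.

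The depth over gene rows was 120461126 expected counts for replicate 1, against 108007021 for replicate 2. Markers of the labelled tissue were present: all 8 neuronal and all 6 neural progenitor markers reached a level of 1 TPM, the unit of transcript abundance, in both libraries. The libraries were not alike in other tissues. The summed TPM of 6 trunk and caudal Hox genes was 4.35 in replicate 1 and 150.5 in replicate 2. The sum of 6 skeletal muscle genes was 103.9 and 433.2, and that of 4 liver and yolk sac genes 896.8 and 352.7. Actc1 alone held 102.4 and 372.4 TPM of the muscle sums. Of the other muscle genes, Myog was at 0.40 and 34.2 TPM and Myod1 at 0.15 and 19.4. The 6 progenitor genes summed to 3860 and 1930 TPM and the 8 neuronal genes to 1508 and 1267 TPM. Vim alone held 2643 and 1153 TPM of the progenitor sums. By counts scaled to library size, 1 of the 6 progenitor genes, Nes, was at least 2-fold lower in replicate 2. The median log2 ratio of the 6, replicate 2 over replicate 1, was -0.85. In such bulk tissue, fewer cells of a type and less RNA per cell cannot be told apart.

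Most of the postsynaptic genes were already present in this RNA. TPM, which is corrected for transcript length and so can be compared between genes, reached 1 in both libraries for 28 of 30 members, while 60.8% of 21474 protein-coding genes did so. The exceptions were Lrrtm2 and Arc. The median over members of the mean TPM was 8.75, against 5.29 over all protein-coding genes and 20.2 over the protein-coding genes that reached 1 TPM in both libraries. Levels ran from 0.445 TPM for Lrrtm2 to 151.0 TPM for Dlgap4, and 12 of 30 members were at 10 TPM or more in both libraries.

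**Figure D1:**
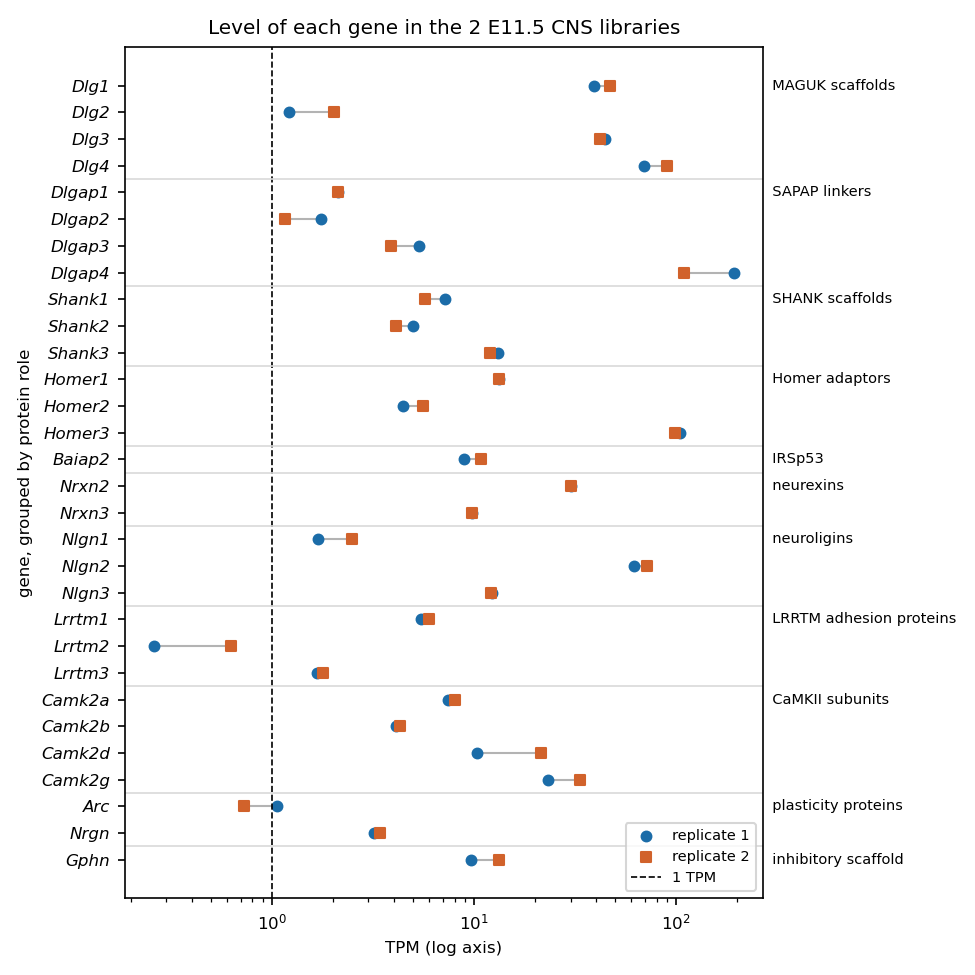
Level of each of the 30 genes in TPM (log axis) in replicate 1 (circles) and replicate 2 (squares), grouped by protein role, with a dashed line at 1 TPM. Within most families 1 paralog stands well above the others, and only Lrrtm2 and Arc have a library under the line.

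The genes were ordered from high to low as Dlgap4, Homer3, Dlg4, Nlgn2, Dlg3, Dlg1, Nrxn2, Camk2g, Camk2d, Homer1, Shank3, Nlgn3, Gphn, Baiap2, Nrxn3, Camk2a, Shank1, Lrrtm1, Homer2, Dlgap3, Shank2, Camk2b, Nrgn, Dlgap1, Nlgn1, Lrrtm3, Dlg2, Dlgap2, Arc and Lrrtm2. Of the 29 pairs of neighbours in this order, 12 had library values that did not overlap and 17 overlapped, so much of the fine order is within the spread of the libraries. The steps that stood apart included Dlgap4 above Homer3, Homer3 above Dlg4, Nlgn2 above Dlg3 and Dlg1 above Nrxn2. An earlier quantification of the same libraries on mm9, in RPKM, put 9 of the 10 highest members among its own 10 highest (Spearman's rho 0.99 across the 30 genes, which share their libraries).

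In 5 of 8 families 1 paralog carried more than 70% of the RNA. Among the SAPAP linkers Dlgap4 made up 95.4% of the family's summed TPM in replicate 1 and 93.8% in replicate 2. Homer3 made up 85.5% and 83.9% of the Homer RNA, Nlgn2 81.6% and 83.0% of the neuroligin RNA, and Lrrtm1 74.0% and 71.2% of the LRRTM RNA. These shares differed by less than 3 percentage points between the libraries. Nrxn2 held 75.5% and 75.4% of the RNA of the 2 neurexins measured here. The MAGUK, SHANK and CaMKII families were less dominated. Their leading shares were 44.9% and 49.6% for Dlg4, 51.9% and 54.9% for Shank3 and 51.5% and 49.5% for Camk2g. All shares here count every transcript of a gene, annotated as coding or not.

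**Figure D2:**
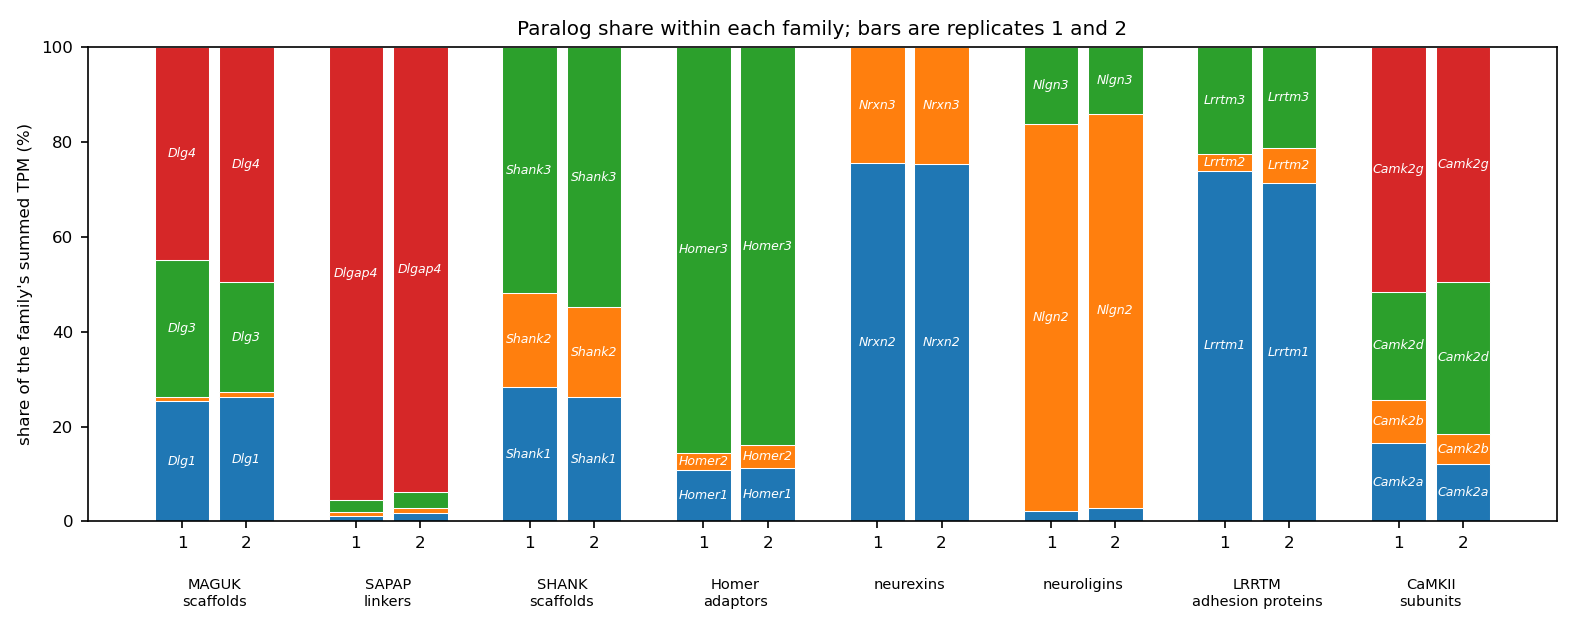
Share of each paralog in the summed TPM of its family (%), with replicate 1 at left and replicate 2 at right in each pair of stacked bars. Dlgap4, Homer3, Nlgn2, Nrxn2 and Lrrtm1 each fill more than 70% of their bars in both libraries.

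Dlg4 encodes PSD-95, the scaffold that anchors glutamate receptors and neuroligins at mature excitatory synapses. It was the most abundant MAGUK, with 69.2 TPM in replicate 1 and 89.6 in replicate 2, from 10968 and 11007 expected counts, or 79.4 ± 14.4 TPM (SD, n = 2). On the scale of scaled counts the libraries were nearly equal, with a log2 ratio of replicate 2 over replicate 1 of 0.05 (exact 95% binomial interval 0.01 to 0.09). Dlg3 was at 44.6 and 41.9 TPM and Dlg1 at 39.1 and 47.2 TPM, and the ranges of those scaffolds overlapped over all transcripts. Over transcripts annotated as coding they did not, with Dlg3 at 5.96 and 4.06 TPM and Dlg1 at 23.7 and 27.3. Dlg4 stayed highest on that scale at 47.9 and 59.0 TPM. Dlg2, which encodes PSD-93, was far lower at 1.21 and 2.02 TPM.

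Dlg4 RNA was a mixture of forms. Of 13 Dlg4 transcripts in the authors' tables, 7 reached 1 TPM in a library. The coding transcript Dlg4-201 was the most abundant at 31.8 and 36.5 TPM, or 45.9% and 40.7% of Dlg4 TPM. Second in replicate 1 was Dlg4-205, at 19.3 and 14.5 TPM (27.9% and 16.1%). GENCODE M21 annotates it as a target of nonsense-mediated decay, the pathway that degrades RNA with an early stop codon, but as a transcript of 2888 nt, while the authors' tables measured a model of 729 nt under the same name. Its TPM therefore cannot be read as the level of the longer form. The short retained-intron transcript Dlg4-207 was at 1.5 TPM in replicate 1 and 15.7 in replicate 2. The remaining 4 were annotated as coding in M21: Dlg4-203 at 4.97 and 7.13 TPM, Dlg4-208 at 3.15 and 7.09, Dlg4-213 at 4.99 and 3.38, and Dlg4-211 at 1.91 and 3.21. Short transcripts weigh heavily in TPM: Dlg4-205 is 729 nt and Dlg4-207 is 301 nt long, against 3204 nt for Dlg4-201, and by expected counts Dlg4-201 held 74.1% of Dlg4 as the mean of the libraries.

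**Figure D3:**
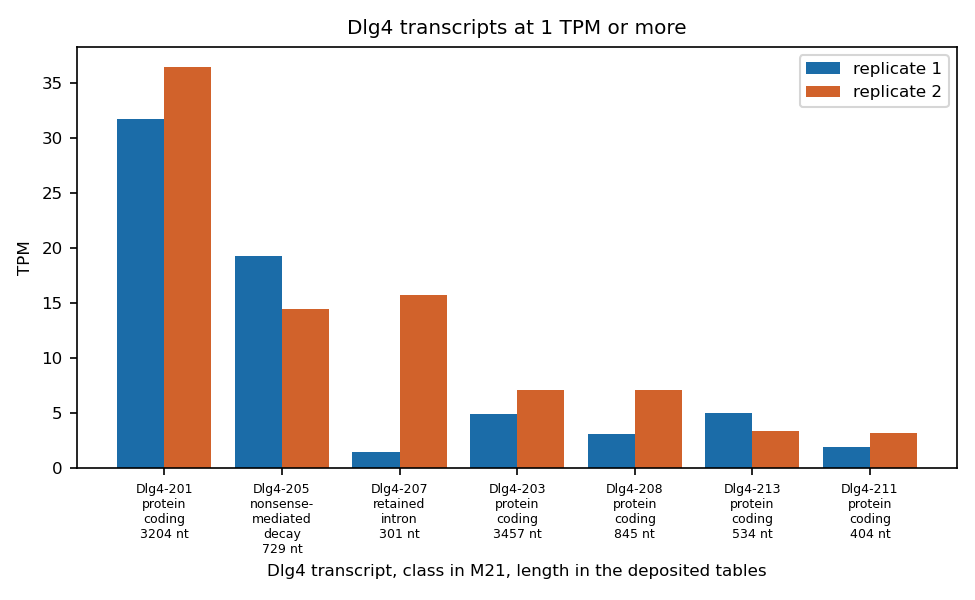
TPM of the 7 Dlg4 transcripts that reached 1 TPM in a library, for replicate 1 (left bars) and replicate 2 (right bars), with the class of each in M21 and its length in the authors' tables. Dlg4-201 is highest in both libraries, and Dlg4-207 is the transcript with the most unequal bars.

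Junction reads gave a second readout of the same RNA that does not use these transcript models. In M21, Dlg4-205 lacks an exon of 110 bases, a length that is not a multiple of 3, at chr11:70043658-70043767 on the plus strand of mm10, which is exon 17 of 19 in Dlg4-201 and coding. This exon is known to be repressed by the PTB proteins in cells that are not mature neurons. The exon and its spliced surroundings are shown because leaving it out changes the reading frame. In the first sequence below, capitals mark the exon and 15 bases of each neighbour are in lower case. In the second, which joins the neighbours directly after 60 bases of upstream sequence, capitals mark the first stop codon in frame.
Dlg4 exon of 110 bases: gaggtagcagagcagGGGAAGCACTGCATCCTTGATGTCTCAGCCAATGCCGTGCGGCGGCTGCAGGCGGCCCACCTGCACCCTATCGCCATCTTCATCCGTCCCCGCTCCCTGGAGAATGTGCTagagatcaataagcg
Dlg4 form without the exon: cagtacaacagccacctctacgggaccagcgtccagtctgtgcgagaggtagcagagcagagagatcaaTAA
That stop ends 12 bases after the new junction and 80 bases before the last exon junction.

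In the mm9 junction list, 247 reads skipped this exon, and 571 and 586 reads joined it to the exon before and the exon after. Skipping was thus 29.9% of an effective 826 reads (exact 95% binomial interval 26.8% to 33.2%, counting error only). The list gives 2 values for each junction, and no source used here ties either value to a replicate. By the first value 19.5% of reads skipped the exon (15.04% to 24.5%) and by the second 35.5% (31.5% to 39.7%), so the intervals did not overlap. No other measured internal exon of Dlg4, of 18 in all, was skipped in more than 7.41% of reads. Ptbp1, a repressor of this exon, was at 143.5 and 341.5 TPM and its neuronal paralog Ptbp2 at 103.6 and 129.6 TPM. Their part in the skipping was not tested.

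Alternative exons were found in other members too. Internal exons with at least 20 junction reads were called alternative where at least 20 reads skipped them, in 10% to 90% of reads. Of 351 such exons in 27 members, 23 in 14 genes were called (6.55%), the Dlg4 exon among them. Of 126387 exons of all genes, 2.62% were called. A call needs 20 skipping reads, so these shares depend on junction depth, which was not matched. Of those 23, 15 had a length that is a multiple of 3 (65.2%, against 53.4% of the 3308 called in all genes), so that the reading frame is the same with or without them. The first and second junction values gave skipping shares whose 95% intervals did not overlap for 6 of 23 exons. The same was not counted over all genes, so it cannot be called particular to these members. The median difference between both values was 11.4 percentage points.

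**Figure D4:**
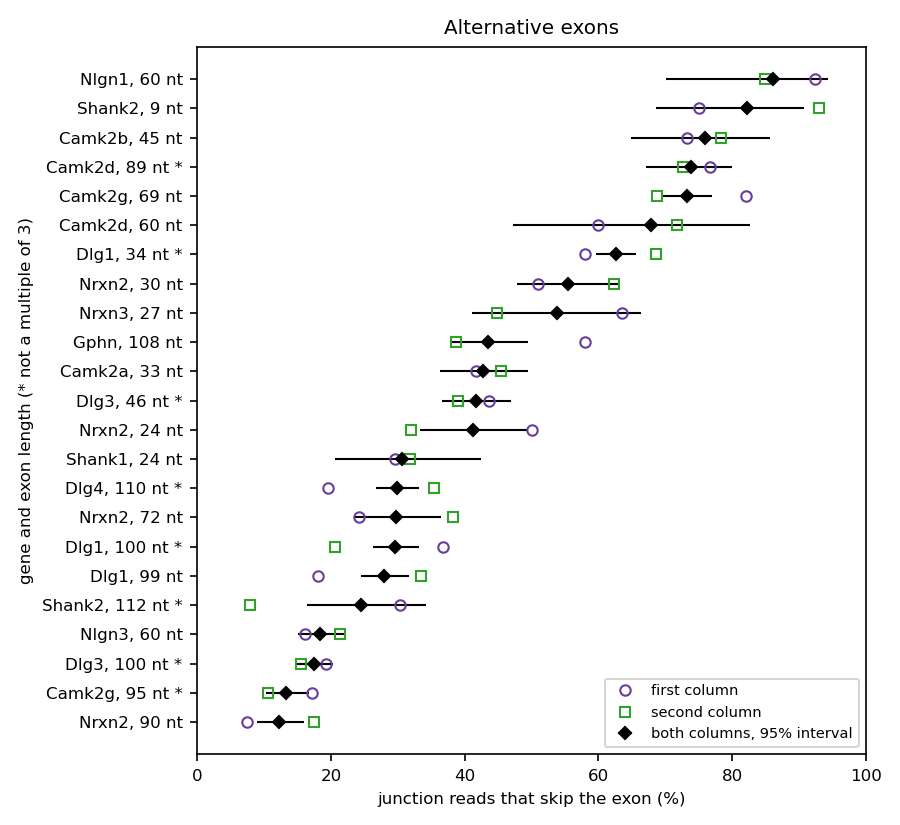
Share of junction reads (%) that skip each of the 23 alternative exons, named by gene and length. Diamonds with bars are both junction values together with exact 95% binomial intervals, circles the first value, squares the second, and an asterisk marks a length that is not a multiple of 3. Skipping runs from 12.2% for the exon of 90 bases in Nrxn2 to 86.1% for that of 60 bases in Nlgn1.

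Dlg1 encodes the widely expressed SAP97, and Dlg3 encodes SAP102, the MAGUK that is prominent at young synapses. Both chose between a pair of neighbouring exons at the same place, and in both genes each exon alone adds 1 base beyond a multiple of 3. Use of exactly 1 exon of the pair keeps the frame, and use of neither or both shifts it. The 4 exons are shown with 15 bases of each spliced neighbour in lower case and the exon in capitals. The second Dlg3 exon is taken from Dlg3-201, which continues with a later exon than the one counted below.
Dlg1 first exon, chr16:31846834-31846933: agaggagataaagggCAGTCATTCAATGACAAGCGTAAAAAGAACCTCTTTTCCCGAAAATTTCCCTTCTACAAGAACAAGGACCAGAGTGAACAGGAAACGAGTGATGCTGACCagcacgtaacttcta
Dlg1 second exon, chr16:31847636-31847669: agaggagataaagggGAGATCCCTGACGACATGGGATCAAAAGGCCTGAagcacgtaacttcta
Dlg3 first exon, chrX:100808053-100808152: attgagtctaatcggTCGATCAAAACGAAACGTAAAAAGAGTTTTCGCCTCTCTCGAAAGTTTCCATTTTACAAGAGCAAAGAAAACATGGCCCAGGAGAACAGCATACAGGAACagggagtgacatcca
Dlg3 second exon, chrX:100809862-100809907: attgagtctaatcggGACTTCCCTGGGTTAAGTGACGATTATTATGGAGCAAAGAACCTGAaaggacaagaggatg
The first exons of both genes are 100 bases long and 49 of these positions are identical. The second exons are 34 bases in Dlg1 and 46 bases in Dlg3. All 4 lie on the plus strand and are coding in mm10.

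In Dlg1, 209 reads left the exon before the pair for the first exon, 203 for the second, and 4 joined it to the exon after the pair with neither. The near-equal sums hide opposite orders: the first junction value had 73 reads to the first exon and 142 to the second, and the second value had 136 and 61. Both were used together in 112 reads. On the other side of the pair, 663 reads left the first exon directly for the exon after it and 474 left the second. There the first exon led in both values, with 344 against 279 reads by the first and 319 against 195 by the second. Which Dlg1 exon was used more thus depended on the side that was read. In Dlg3 the first exon took 840 reads from the exon before, or 68.9%, the second took 238 (19.5%), and 141 (11.6%) used neither. Only 10 Dlg3 reads joined both exons. The Dlg3 junction with neither exon is not annotated in the authors' list and had 84 and 57 reads in its first and second value. In the shown frame, that Dlg3 form reaches a stop 9 bases after the junction. The exon of 99 bases in Dlg1, in the linker before the PDZ domains, was skipped in 27.9% of reads (24.5% to 31.6%), with 17.98% by the first value and 33.5% by the second.

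Much of the Dlg3 RNA was assigned to a form with an internal first exon. Dlg3-208, a transcript of 3316 nt annotated as a processed transcript without a reading frame, held 84.2% and 84.3% of Dlg3 TPM. Junctions from its own first exon made up 206 of 277 reads that entered the next shared exon (74.4%, interval 68.8% to 79.4%). The coding transcripts of Dlg3 summed to only 5.96 and 4.06 TPM of a gene total of 44.6 and 41.9. This start, and those of the neurexins below, were singled out after their values were seen.

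Dlgap4 had the highest level of all members, 193.0 TPM in replicate 1 and 109.0 in replicate 2. The values were 151.0 ± 59.4 TPM (SD, n = 2), the widest absolute spread in the set. On scaled counts, 21494 and 17123, the log2 ratio was only -0.28 (-0.31 to -0.25). A single short transcript separated the scales: Dlgap4-207, of 388 nt and annotated as processed, was at 89.2 TPM in replicate 1 and 8.11 in replicate 2. The coding Dlgap4 transcripts summed to 92.7 and 87.0 TPM and the coding Homer3 transcripts to 67.02 and 62.5 TPM. Dlgap3 followed at 5.35 and 3.87 TPM, Dlgap1 at 2.13 and 2.12, and Dlgap2 at 1.75 and 1.16.

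SHANK proteins form the deeper layer of the postsynaptic density. Shank3 was highest at 13.1 and 12.02 TPM, followed by Shank1 at 7.16 and 5.74 and Shank2 at 4.99 and 4.13, and the 3 ranges did not overlap. The most abundant Shank3 transcript, Shank3-202, is annotated as processed, and the coding ones summed to 7.36 and 6.49 TPM. Homer3, an adaptor with a coiled coil, was at 103.9 and 98.6 TPM, far above Homer1 at 13.2 and 13.3 and Homer2 at 4.43 and 5.57. Homer1 had several coding forms, among which Homer1-204, whose last exon is extended as in the short activity-induced form, was at 1.24 and 2.51 TPM. Baiap2, which encodes the actin-binding SHANK partner IRSp53, was at 8.89 and 10.8 TPM.

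On the adhesion side, Nlgn2, the neuroligin of inhibitory synapses, was by far the highest at 61.9 and 71.4 TPM. Nlgn3 was at 12.3 and 12.2 TPM and Nlgn1, the neuroligin of excitatory synapses, at 1.69 and 2.49, so the 3 genes were widely separated. An exon of 60 bases occurs in both Nlgn3 and Nlgn1 at the site where the extracellular domain is varied by splicing. Capitals mark it below.
Nlgn3 exon, chrX:101307075-101307134, plus strand: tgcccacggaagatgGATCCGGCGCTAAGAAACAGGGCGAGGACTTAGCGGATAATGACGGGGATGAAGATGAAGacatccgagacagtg
Nlgn1 exon, chr3:25920178-25920237, minus strand: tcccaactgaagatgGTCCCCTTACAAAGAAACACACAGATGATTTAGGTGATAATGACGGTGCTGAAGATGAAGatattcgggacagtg
The exons are identical at 43 of 60 positions. In Nlgn3 the exon was mostly included, with 18.3% skipping (15.04% to 21.99%) over an effective 502.5 reads. In Nlgn1 it was mostly left out, with 86.1% skipping (70.2% to 94.3%), but over only 39.5 effective reads. Those 2 intervals did not overlap.

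Nrxn2 was at 30.10 and 30.02 TPM and Nrxn3 at 9.75 and 9.79 TPM, and for both the libraries differed by less than 1 TPM. On scaled counts Nrxn2 was lower in replicate 2, with 7731 and 5676 counts and a log2 ratio of -0.40 (-0.45 to -0.35). Neurexin genes have an upstream promoter for the long alpha form and an internal promoter for the short beta form. In Nrxn2 the internal first exon supplied 232 of 306 reads that entered the first shared exon (75.8%, 70.6% to 80.5%), with 32 of 63 by the first value and 200 of 243 by the second. In Nrxn3 it supplied 30 of 81 (37.0%, 26.6% to 48.5%), with 8 of 37 by the first value and 22 of 44 by the second. The most abundant Nrxn2 transcript, Nrxn2-202, starts at that internal exon and held 39.9% and 42.2% of Nrxn2 TPM, while that of Nrxn3, Nrxn3-204 at 42.8% and 38.1%, is annotated as a retained intron.

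The Nrxn2 exon of 90 bases at the fourth splice site, which controls which ligands a neurexin binds, was included in most reads. Only 44 reads skipped it, or 12.2% (9.00% to 16.0%), with 7.43% by the first value and 17.4% by the second. Smaller Nrxn2 exons of 72, 30 and 24 bases, all coding, were skipped in 29.8%, 55.4% and 41.2% of reads, and an exon of 27 bases in Nrxn3 in 53.8%. These were named after their values were seen. Of the regulators of the fourth splice site, Khdrbs1 was at 109.7 and 103.4 TPM, Khdrbs2 at 5.21 and 4.68 and Khdrbs3 at 40.8 and 42.3, and their part in the inclusion was not tested.

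LRRTM proteins are a second class of postsynaptic neurexin ligands. Lrrtm1 was at 5.48 and 5.97 TPM, Lrrtm3 at 1.67 and 1.78 and Lrrtm2 at 0.260 and 0.630. Their ranges did not overlap. Of the Lrrtm3 TPM only 20.96% and 24.16% was in its single coding transcript, at 0.35 and 0.43 TPM, which lay within the range of Lrrtm2.

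The CaMKII genes were led by the widely expressed subunits. Camk2g was at 23.2 and 33.3 TPM and Camk2d at 10.3 and 21.5, while Camk2a and Camk2b, the main subunits of adult neurons, were at 7.39 and 8.09 TPM and at 4.11 and 4.32 TPM. The lowest Camk2d value was above both Camk2a values, but over coding transcripts alone Camk2d was at 6.38 and 15.6 TPM and Camk2a at 7.35 and 8.08, which overlapped. All 4 genes had alternative exons in the coding region of the variable linker. The exon of 69 bases in Camk2g was skipped in 73.2% of reads (69.3% to 77.02%), that of 45 bases in Camk2b in 75.9% (64.9% to 85.6%) and that of 60 bases in Camk2d in 67.8% (47.2% to 82.7%). The exon of 33 bases in Camk2a was skipped in 42.8% (36.3% to 49.5%). Another Camk2g exon, of 95 bases in the kinase domain, was skipped in 13.3% (10.3% to 16.7%), which shifts the frame. A Camk2d exon of 89 bases at the end of the reading frame, only partly coding, was skipped in 73.8%.

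Arc, an immediate early gene of synaptic plasticity, was at 1.06 TPM in replicate 1 and 0.730 in replicate 2, and Nrgn, a calmodulin-binding protein of mature forebrain neurons, at 3.20 and 3.42 TPM. Gphn, which encodes gephyrin, was at 9.70 and 13.4 TPM. Its 2 coding forms shifted between libraries: Gphn-202 was at 5.72 and 11.2 TPM and Gphn-201 at 3.98 and 2.19. They differ in part by an exon of 108 bases that Gphn-202 contains and that keeps the frame, shown here in capitals.
Gphn exon, chr12:78493950-78494057, plus strand: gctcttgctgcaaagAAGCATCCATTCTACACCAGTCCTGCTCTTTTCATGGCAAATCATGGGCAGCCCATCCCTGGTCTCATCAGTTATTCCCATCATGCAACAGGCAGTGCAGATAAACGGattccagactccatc
Junction reads skipped it in 43.5% (37.8% to 49.4%), with 57.9% by the first value and 38.7% by the second.

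Few members differed by 2-fold or more between the libraries. At least 2-fold was called where the counts of both libraries summed to 100 or more, and 2 of 30 members were called higher in replicate 2 and 0 lower. Over all 16511 genes tested, 6.53% were higher and 4.92% lower, so the members' count is near the background. For 24 of 30 members the ratio was within 1.5-fold. The median log2 ratio of the members was -0.04, against -0.00 over the 15038 genes that averaged 1 CPM (reads scaled to library size) or more, and the SD of the ratios was 0.46 and 0.80. Both called members were rare. Dlg2 had 223 counts in replicate 1 and 498 in replicate 2 (log2 ratio 1.20, 0.97 to 1.44). Lrrtm2 had 122 and 254 (1.10, 0.79 to 1.43). On the scale of log2(TPM + 1) the differences were 0.45 and 0.37 and neither reached 2-fold. The gene length in the authors' tables, which enters TPM, was 2332 in replicate 1 and 3555 in replicate 2 for Dlg2, and 5665 in both for Lrrtm2. Next by size were Dlgap2 (-0.72), Arc (-0.71), Dlgap3 (-0.70) and Camk2d (0.63). Trunk Hox and muscle genes were higher in the same library, and their part in these ratios was not tested.

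**Figure D5:**
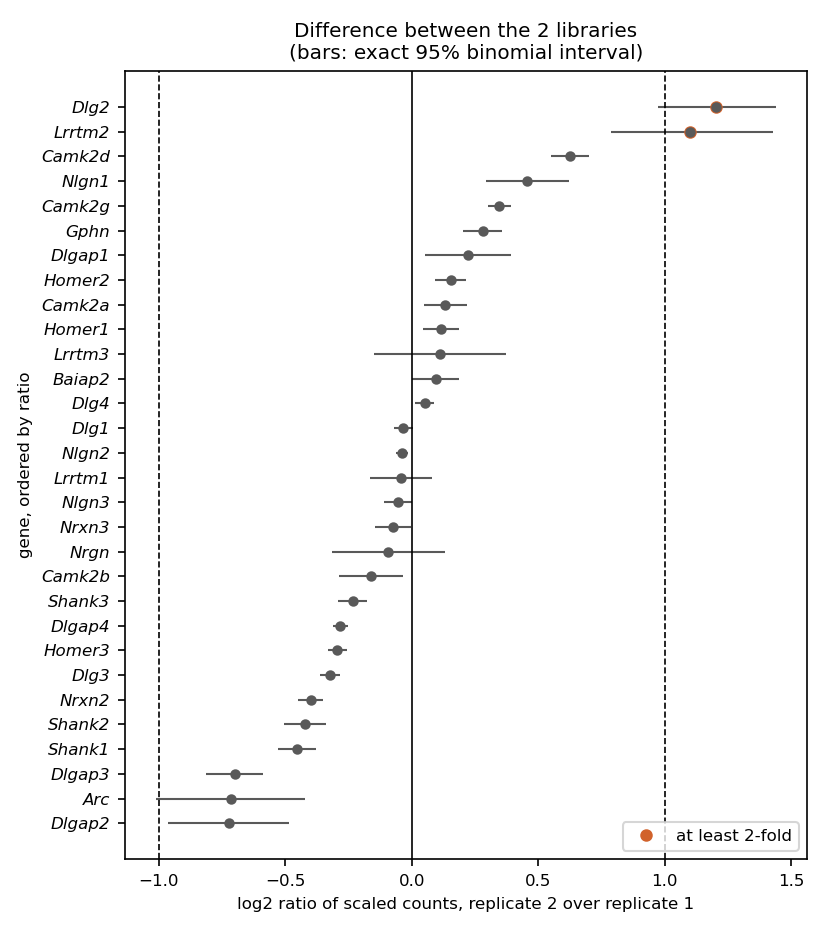
Log2 ratio of scaled counts, replicate 2 over replicate 1, for the 30 genes in order of ratio, with exact 95% binomial intervals that cover counting error only and dashed lines at 2-fold. Dlg2 and Lrrtm2 lie above the upper line and no gene lies below the lower one.

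Other genes of the postsynapse were read from 7 lists that hold 144 genes, of which 143 were measured. Of these, 115 reached 1 TPM in both libraries, and the median gene was at 7.07 TPM. The highest scaffold and signalling partners were the dynein light chain Dynll1 at 672.0 and 906.3 TPM, the actin-binding drebrin gene Dbn1 at 1035 and 363.3, and cortactin, Cttn, at 283.1 and 156.0. All 34 genes of that list were detected, and their middle level was 24.3 TPM. Among other adhesion proteins and neurexin ligands 32 of 36 were detected, led by Ptprs at 232.2 and 264.2 TPM, Igsf9 at 109.5 and 93.3 and Ptprf at 62.6 and 79.0.

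The receptors that these scaffolds hold were lower. Of 19 glutamate receptor subunits and auxiliary proteins 10 were detected, with a median of 1.23 TPM, and the highest were the auxiliary proteins Cnih2 at 56.4 and 58.1 TPM and Cacng4 at 55.1 and 35.7, then the AMPA receptor subunit Gria2 at 17.4 and 18.8. Of 14 genes of the inhibitory postsynapse 8 were detected, among them Insyn1 at 10.6 and 7.78 TPM. Among the 18 calcium genes, the calmodulin gene Calm2 was at 820.4 and 806.6 TPM and Calm3 at 308.4 and 279.4. Of 10 immediate early genes 3 were detected, Nr4a1 at 2.26 and 4.33 TPM, Junb at 3.26 and 2.96 and Bdnf at 1.01 and 1.89. Egr1, next after Junb by mean TPM, was at 0.790 and 2.17 and so under 1 TPM in replicate 1. All 12 splicing regulators were detected.

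Of the 136 partner genes tested, 14 were higher in replicate 2 and 2 lower, or 10.3% and 1.47% beside the 6.53% and 4.92% of all genes. By log2(TPM + 1) only 8 were higher and 1 lower. The scaffold list held Actn2, a muscle and spine actinin (log2 ratio 1.95), and Lin7a (1.02). The adhesion list held Slitrk6 (2.17), Cbln4 (1.56), Clstn2 (1.42), Il1rapl1 (1.14) and Cadm2 (1.03). Among receptors Glra1, the glycine receptor subunit of spinal cord and brainstem, had 26 and 384 counts (3.90), Glra2 126 and 269 (1.14) and Grin3a 259 and 669 (1.41). The others were Pcp4 (2.00), Ppp1r1b (-1.01), Egr1 (1.28), Egr2 (1.27) and Ptbp3 (1.04). Muscle markers were higher in replicate 2 in 6 of 6 cases and trunk Hox genes in 6 of 6, and their part in these counts was not tested.

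The annotated class of transcripts sets how much of a level can be read as coding RNA. For 24 of 30 members the most abundant transcript was annotated as coding, and for 22 the same transcript was highest in both libraries. Coding transcripts made up less than 50% of TPM in both libraries for 4 members: Dlg3, Dlgap2, Nrxn3 and Lrrtm3. With only coding transcripts counted, 25 of 30 members reached 1 TPM in both libraries, and the median member was at 5.24 TPM.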

How the data were processed

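Members and lists were chosen with earlier results of these data known. The authors deposited per library an expected count, TPM and FPKM per gene and per transcript on mm10 (annotation M4), per the file headers and labels. No source used here names the aligner or quantifier. They also deposited mm9 tables for both libraries together: RPKM per gene on Ensembl 65 models, and counts of junction reads, with 2 values per feature that are not tied to a replicate. Gene symbols, transcript classes and exon coordinates came from GENCODE M21 on GRCm38 (mm10), where 242 of 243 member transcripts had an entry and 199 the same length; sequences are spliced transcript sequence from the same release, and mm9 exons were matched to mm10 through shared transcripts by the lengths of the exon and its neighbours.

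Expected counts were rounded. Spike-ins and rows without an Ensembl gene (4.67% and 3.30% of all expected counts) stayed out of library sizes. Scaling was by TMM (edgeR 4.0.16) over genes with a summed count of at least 100, and size factors from DESeq2 1.42.0 were the alternative. Log2 ratios used a prior count of 0.5 and were called at 2-fold, with exact (Clopper-Pearson) 95% intervals on the 2 counts. Member counts ran from 122 to 25948, for which the widest interval reaches about 25% to either side. PCR reads are not independent molecules, so intervals cover counting error only. Skipping is the share of reads that skip an exon, with inclusion as the mean of its 2 junctions; of overlapping exon versions the one with most reads was kept. The ratio and skipping code was tested on simulated data.

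All 30 members are named. From each partner list the 3 genes highest by mean TPM and up to 5 called genes are named; from each member the most abundant transcript, and for Dlg4 every transcript at 1 TPM or more; and the 8 alternative exons with most reads outside Dlg4. Others were named after their values were seen. Some items that these rules select are not reported here. With 1 group and 2 libraries no test between conditions exists.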

Additional observations from a re-analysis of the deposited data

How the results depend on the processing

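No paired analysis was possible because there was 1 group. The count of members at 1 TPM in both libraries was 28, and it was 18 at a limit of 5 TPM. Leaving out 1 library gave 28 or 29 members and a median of 8.14 or 8.94 TPM, against 8.75. The median was 5.83 in FPKM, 1.06 in mm9 RPKM and 5.24 TPM over coding transcripts, an alternative added after seeing the data. Members called higher were 2 under each setting of scaling, prior and count limit, 0 by log2(TPM + 1) and 3 at 1.5-fold; members called lower were 0, and 3 at 1.5-fold. By log2(TPM + 1) the median ratio of all genes was 0.12 and that of members 0.06. Partner genes called were 8 higher and 1 lower by log2(TPM + 1), against 14 and 2. The share of Dlg4-201 was 43.3% of TPM (40.7% to 45.9% with 1 library left out) and 74.1% of expected counts. Inclusion of the Dlg4 exon was 70.1%, and 64.5% to 80.5% over the junction alternatives. The 2 called members, Dlg2 and Lrrtm2, fell under 2-fold by log2(TPM + 1), and neither changed sign under any setting. A count limit cannot alter a ratio, so those settings do not test it. Some uncalled members changed sign by log2(TPM + 1), such as Dlg1 from -0.03 to 0.27. Depth limits the exons with few reads, such as that of Nlgn1, whose interval runs from 70.2% to 94.3%.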
